A study of Canis lupus familiaris with 18 samples.

Results

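KAT2B and 9 related genes that encode histone acetyltransferases were examined in canine high grade oligodendroglioma (HGO) tissue. They were taken from the count table by their symbols, KAT2A, KAT2B, HAT1, EP300, CREBBP, KAT5, KAT6A, KAT6B, KAT7 and KAT8, and make up 10 of the 29993 genes listed. KAT2B was chosen because its level was lower in French bulldogs in this same contrast, so its values between those groups are given as a description without a test. The other 9 genes are its relatives in function.

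The tissue was bulk tumor, fixed in formalin and embedded in paraffin, from dogs that had undergone surgery, with 1 RNASeq library labelled for each dog. Libraries from 11 French bulldogs were compared with those from 7 dogs of the comparison group, which held 4 boxers (numbers 1, 3, 4 and 5 in the sample titles) and 3 Boston terriers (numbers 2, 6 and 7). All 3 are short-headed breeds prone to glioma, the tumors were removed before the dogs received any trial therapy, no genotype is given for any group, and ages were not used here. The authors report that mean age, the proportion of females and tumor location differed between French bulldogs and the comparison group. These cannot be told apart from breed here. One case number is given for both French bulldog 2 and French bulldog 8, so 11 separate dogs cannot be assumed. The p-values measure only the spread between these libraries.

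Histone acetyltransferases move an acetyl group from acetyl-CoA to lysine residues of histones and other proteins, a mark that goes with open chromatin and active transcription. They fall into the GNAT family (KAT2A, KAT2B and HAT1 here), the paired coactivators EP300 and CREBBP, and the MYST family (KAT5, KAT6A, KAT6B, KAT7 and KAT8), and most work inside large complexes that direct them to chromatin. In the oligodendrocyte lineage, acetylation by these enzymes and its removal by histone deacetylases take part in the change from progenitor to myelin-forming cell.

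The libraries held between 8212452 and 13169880 counts. Levels are given as normalized CPM, which are counts per 1000000 of the library total after scaling by the trimmed mean of M values (TMM). The detection limit was set at 3 counts, or 0.223 to 0.351 CPM, and the lowest count of any of the 10 genes was 45, for HAT1 in Boston terrier 6. All 10 genes therefore passed the filter on low counts, together with 16495 genes in all. CPM is not adjusted for transcript length, so levels are compared between dogs and not between genes. In bulk tissue, fewer cells of a type and less RNA per cell cannot be told apart.

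French bulldog 6 stood apart in its cell type markers. The summed level of 8 oligodendrocyte lineage markers was 43.9 CPM in this library, with OLIG2 and NKX2-2 at 0 counts, against 1221 to 7139 CPM in the other 10 French bulldogs and 2033 to 3986 CPM in the comparison group. The summed level of 11 macrophage and microglia markers was 8997 CPM in French bulldog 6 and 68.5 to 451 CPM in the other 10. Several of the values it moved are given with and without it.

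KAT2B (ENSCAFG00000005810) encodes PCAF, the acetyltransferase of the SAGA and ATAC coactivator complexes that was first known as a partner of p300 and CBP. On another assembly the KAT2B gene overlaps a long non-coding RNA, as EP300, KAT6B and KAT7 do, and without a stated strand setting their reads may not be fully separate. Its level in French bulldogs had a lowest value of 144 CPM, a median of 218 CPM and a highest value of 343 CPM. The boxers had 497, 338, 261 and 395 CPM in numbers 1, 3, 4 and 5. The Boston terriers had 369, 448 and 550.0 CPM in numbers 2, 6 and 7. French bulldogs 4 and 5 overlapped the comparison group, and they were the only French bulldogs above boxer 4, the lowest dog of that group.

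The mean KAT2B level was 224 CPM ± 64.0 (SD, n = 11) in French bulldogs and 408 CPM ± 98.4 (SD, n = 7) in the comparison group, which was 1.82 times as high. The log2 fold change, French bulldog minus comparison, was -0.86 (SE 0.19, 95% interval -1.27 to -0.46). Of the 11 French bulldogs, 9 were below every comparison dog, and 11 of 11 were below the comparison median. Of all genes tested, 0.661% had at least 9 French bulldogs below every comparison dog, a figure given as background only, since the gene was chosen from this contrast. Without French bulldog 6 the French bulldog mean was 228 CPM ± 66.3 (SD, n = 10) and the log2 fold change -0.82.

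KAT2B was lower in French bulldogs against each breed of the comparison group. The log2 difference in level was -0.73 (SE 0.23) against the 4 boxers and -1.02 (SE 0.25) against the 3 Boston terriers. The library names end in numbers, from 1 to 12 in French bulldogs and in 2 runs in the comparison group, 18 to 21 and 1 to 3. Whether these mark sequencing batches is not stated, and a batch effect was not tested. The log2 fold change was -0.71 against the 4 libraries numbered 18 to 21 and -1.05 against the 3 numbered 1 to 3, and it lay between -0.94 and -0.78 when each library was left out in turn. Boxers 1, 3 and 4 and Boston terrier 2 were numbered 18 to 21, and boxer 5 and Boston terriers 6 and 7 were numbered 1 to 3. Breed and run are therefore partly mixed in the comparison group.

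**Figure D1:**
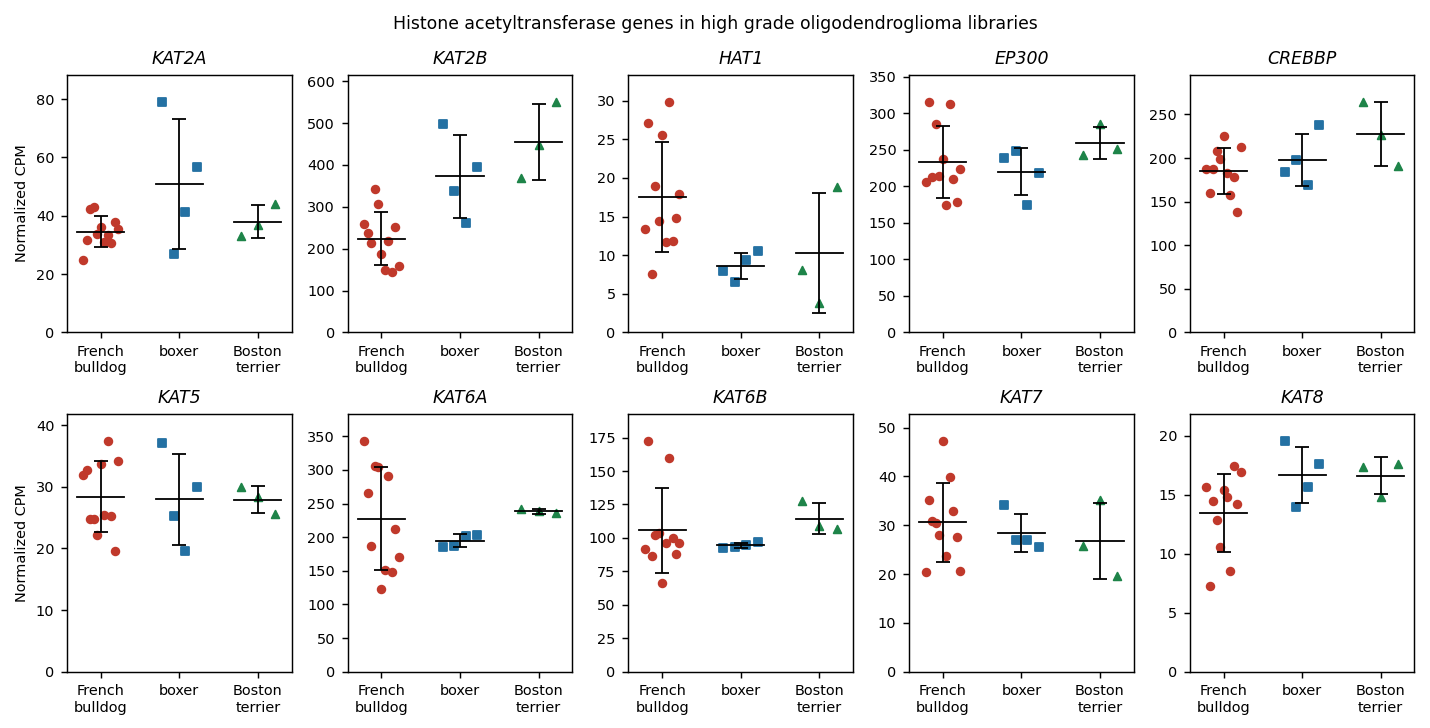
Each panel plots 1 of the 10 genes, with normalized CPM from 0 on the vertical axis and the 3 breeds on the horizontal axis; points are libraries (11 French bulldogs, 4 boxers, 3 Boston terriers), long lines are means and bars are SD. In the KAT2B panel 9 French bulldogs lie below the lowest comparison dog, whereas in the other panels the groups overlap widely.

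A share of counts needs no scaling between libraries. KAT2B took 16.0% to 25.6% of the counts of the 10 genes in French bulldogs, with a mean of 20.2% ± 3.69 (SD, n = 11). In the comparison group the share was 25.7% to 37.7%, with a mean of 31.1% ± 4.44 (SD, n = 7). The ranges met without overlapping, with French bulldog 10 and boxer 4 on either side. This share rests on the count of KAT2B, so it is not independent of the choice of that gene. It was not tested between French bulldogs and the comparison group. The other 9 genes together had 877 CPM ± 132 (SD, n = 11) in French bulldogs and 891 CPM ± 82.5 (SD, n = 7) in the comparison group, a difference within the spread between libraries (two-sided p = 0.718 by exact permutation, or 0.902 adjusted over 3 within-library measures).

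**Figure D2:**
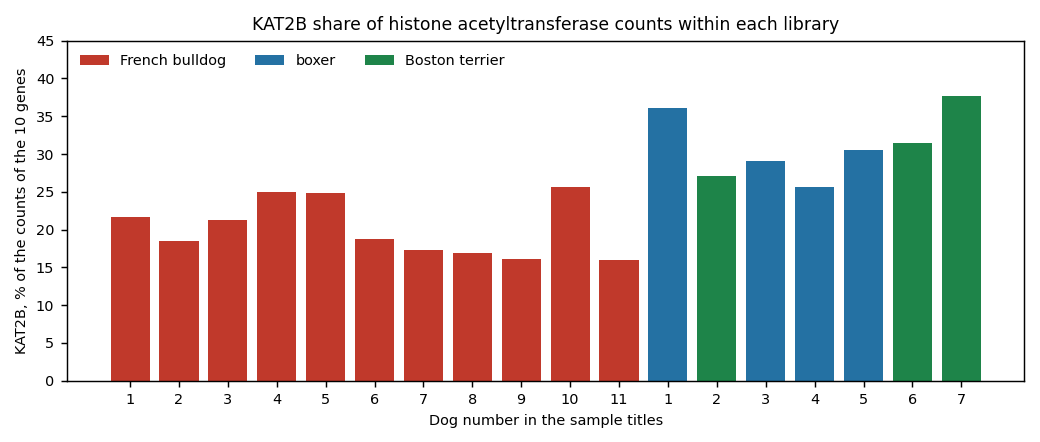
Bars give KAT2B as a percentage of the counts of the 10 genes in each library, from 0 on the vertical axis, with the dog number of the sample titles on the horizontal axis and colours for the 3 breeds; a single library per bar leaves no error bar. French bulldogs run from 16.0% to 25.6% and the comparison dogs from 25.7% to 37.7%.

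Across all 16495 genes tested, edgeR's quasi-likelihood F test called 1 gene (0.00606%) at an adjusted p under 0.05, FGF4, which is not a histone acetyltransferase. None of the 9 genes other than KAT2B was called, with adjusted p from 0.433 to 0.978. At an unadjusted p under 0.05 edgeR gave 2 of the 9, against 10.6% of all genes tested. KAT2A was the 1 of 9 that was lower (3.55% of all genes) and HAT1 the 1 of 9 that was higher (7.02% of all genes). No gene of the 10 had every French bulldog below every comparison dog in CPM (0.0485% of all genes), and none had every French bulldog above (0.00606%). DESeq2 called 0.259% of its genes and gave an adjusted p of 0.172 for HAT1, the lowest that any alternative gave for these 9 genes. Estimates were lower in French bulldogs for 4 of the 9 and higher for 5, with a median log2 fold change of 0.02 against 0.04 over all genes tested. The median size of the log2 fold change, without sign, was 0.14 for the 9 genes and 0.27 for all genes tested.

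KAT2A (ENSCAFG00000015692) encodes GCN5, the close relative of KAT2B that takes the same place in SAGA and ATAC. Its level in French bulldogs had a lowest value of 24.9 CPM, a median of 33.8 CPM and a highest value of 42.9 CPM. The boxers had 78.9, 27.0, 41.4 and 56.6 CPM and the Boston terriers 32.9, 36.9 and 44.1 CPM, in the order of their numbers. The French bulldogs were tightly grouped, and 3 comparison dogs, boxers 1 and 5 and Boston terrier 7, were above all of them. The means were 34.6 CPM ± 5.24 (SD, n = 11) and 45.4 CPM ± 17.5 (SD, n = 7), with a log2 fold change of -0.39 (SE 0.18, edgeR adjusted p = 0.462). This difference leaned on boxer 1: without it the log2 fold change was -0.20, and against the Boston terriers alone it was -0.13.

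The level of KAT2B was also set against that of KAT2A within each library. The count of KAT2B was 4.43 to 10.4 times that of KAT2A in French bulldogs, with a mean ratio of 6.57 ± 1.97 (SD, n = 11). In the Boston terriers it was 11.2 to 12.5 times as high, above every French bulldog. In the boxers it was 6.29 to 12.5 times as high, and 3 of the 4 boxers fell inside the French bulldog range. The ratio uses the count of KAT2B, so it is not independent of the choice of that gene, and it was not tested between French bulldogs and the comparison group. Within the comparison group, its difference between boxers and Boston terriers had an exact two-sided permutation p of 0.229 (adjusted over 5 measures 0.571).

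HAT1 (ENSCAFG00000012890) encodes the acetyltransferase that marks newly made histone H4 before it is placed on DNA. Its level in French bulldogs had a lowest value of 7.52 CPM, a median of 14.8 CPM and a highest value of 29.8 CPM. The boxers had 8.01, 6.58, 9.44 and 10.5 CPM, and the Boston terriers had 8.09, 3.76 and 18.9 CPM. Of the 11 French bulldogs, 10 were above the comparison median, and 4, including French bulldogs 2, 6 and 8, were above every comparison dog. Boston terrier 7 was the exception on the other side, at a level near that of French bulldog 4.

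The mean HAT1 level was 17.6 CPM ± 7.15 (SD, n = 11) against 9.32 CPM ± 4.73 (SD, n = 7). The log2 fold change was 0.91 (SE 0.31, 95% interval 0.26 to 1.56), higher in French bulldogs, with an unadjusted p of 0.00830 and an adjusted p of 0.433 by edgeR's quasi-likelihood F test. It was 0.78 to 1.18 when each library was left out in turn, and no alternative brought it past the threshold. The cell cycle markers are given beside it. Their summed level ranged from 88.6 to 1346 CPM (median 349) in French bulldogs and from 117 to 589 CPM (median 227) in the comparison group, and it did not pass the test between the groups (exact permutation test, p = 0.201, adjusted over 8 lists 0.751). Of the single markers, 4 of 9 were higher at an unadjusted p under 0.05, against 7.02% of all genes tested, and 0 at an adjusted p under 0.05 by edgeR. With French bulldog 6 left out, 1 of the 9 was higher at an unadjusted p under 0.05, and the HAT1 log2 fold change was 0.86. Their part in the HAT1 difference was not tested. On another assembly, the HAT1 gene overlaps SLC25A12, another protein-coding gene and a pseudogene, and the strand setting of the counting is not stated, so some reads may belong to a neighbour.

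EP300 (ENSCAFG00000001125) and CREBBP (ENSCAFG00000019251) encode p300 and CBP, near-twin coactivators that acetylate histone H3 at enhancers. The EP300 level was 234 CPM ± 49.4 (SD, n = 11) in French bulldogs and 237 CPM ± 33.8 (SD, n = 7) in the comparison group. Its log2 fold change was -0.02 (SE 0.15, 95% interval -0.33 to 0.29, edgeR adjusted p = 0.977). The CREBBP level was 185 CPM ± 26.0 (SD, n = 11) and 210.3 CPM ± 33.6 (SD, n = 7), with a log2 fold change of -0.18 (SE 0.13, 95% interval -0.46 to 0.09, edgeR adjusted p = 0.608) that was -0.12 without Boston terrier 2. Neither difference was larger than the spread between libraries.

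Within French bulldogs, 2 libraries stood out in the balance of this pair. The count of EP300 was 1.97 times that of CREBBP in French bulldog 2 and 1.98 times in French bulldog 8, against 0.956 to 1.37 times in the other 9. These are the libraries that share a case number. They also had the highest EP300, KAT6B and HAT1 levels and the lowest KAT8 levels of the French bulldogs. Over log2 CPM their correlation was 0.98 across genes, against at most 0.94 for any other pair of French bulldogs, a description in which genes are not independent replicates. They were kept as 2 libraries because the labels name them as 2 dogs, and n = 11 counts both, although they may be of 1 tumor. With their counts summed as 1 dog, the log2 fold change between the groups was -0.86 for KAT2B, 0.83 for HAT1 and -0.25 for KAT8. Between the groups the difference in the EP300 to CREBBP ratio was within the spread (two-sided p = 0.377 by exact permutation, or 0.902 adjusted over 3 measures).

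Among the MYST genes, KAT6A (ENSCAFG00000005632) and KAT6B (ENSCAFG00000015357) encode MOZ and MORF, which acetylate histone H3 in complexes with BRPF proteins. KAT6A ranged in French bulldogs from 123 CPM, through a median of 213 CPM, to 342 CPM. In the boxers it was 186, 187, 202 and 204 CPM, and in the Boston terriers 243, 238 and 235 CPM. The French bulldogs were spread on both sides of the comparison dogs, 4 below and 5 above all of them. The log2 fold change was 0.09 (SE 0.20, 95% interval -0.34 to 0.52, edgeR adjusted p = 0.912). It was 0.18 without French bulldog 6, the lowest library, and 0.02 without French bulldog 1, the highest. The coefficient of variation of KAT6A was 33.7% in French bulldogs (30.4% without French bulldog 6) and 11.5% in the comparison group, a difference in spread that was not tested.

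KAT6B ranged in French bulldogs from 66.3 CPM, through a median of 96.3 CPM, to 172 CPM. The comparison dogs lay between 92.8 and 128 CPM, inside that range. The lowest French bulldog was number 6 and the highest were numbers 2 and 8, at 172 and 160 CPM. The log2 fold change was 0.04 (SE 0.17, 95% interval -0.32 to 0.39, edgeR adjusted p = 0.965), and its sign turned when French bulldog 2 or 8 was left out. It was 0.11 without French bulldog 6.

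KAT5 (ENSCAFG00000013299) encodes TIP60, which acts in DNA repair and histone exchange. Its level was 28.4 CPM ± 5.77 (SD, n = 11) in French bulldogs and 28.0 CPM ± 5.37 (SD, n = 7) in the comparison group, with a log2 fold change of 0.02 (SE 0.16, 95% interval -0.31 to 0.35, edgeR adjusted p = 0.978). KAT7 (ENSCAFG00000016955) encodes HBO1, which acetylates histone H3 and H4 and is tied to the licensing of replication origins. Its level was 30.6 CPM ± 8.07 (SD, n = 11) and 27.7 CPM ± 5.34 (SD, n = 7), with a log2 fold change of 0.14 (SE 0.18, 95% interval -0.23 to 0.51, edgeR adjusted p = 0.800). French bulldog 6 had the highest KAT7 level of the 18 libraries, 47.2 CPM, and without it the log2 fold change was 0.09. It was 0.07 without Boston terrier 7 and 0.003 without French bulldogs 6 and 8.

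KAT8 (ENSCAFG00000016838) encodes MOF, which acetylates histone H4 at lysine 16 in the MSL and NSL complexes. Its lowest, median and highest levels in French bulldogs were 7.25, 14.5 and 17.4 CPM. The comparison dogs had 14.0 to 19.5 CPM, and 10 of 11 French bulldogs were below their median of 17.4 CPM. The low values were those of French bulldogs 2 and 8, at 7.25 and 8.55 CPM. The log2 fold change was -0.31 (SE 0.18, 95% interval -0.67 to 0.06, edgeR adjusted p = 0.537), a difference that did not pass the test. On another assembly KAT5 overlaps RNASEH2C and KAT8 overlaps PRSS8, and their reads may not be fully separate.

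**Figure D3:**
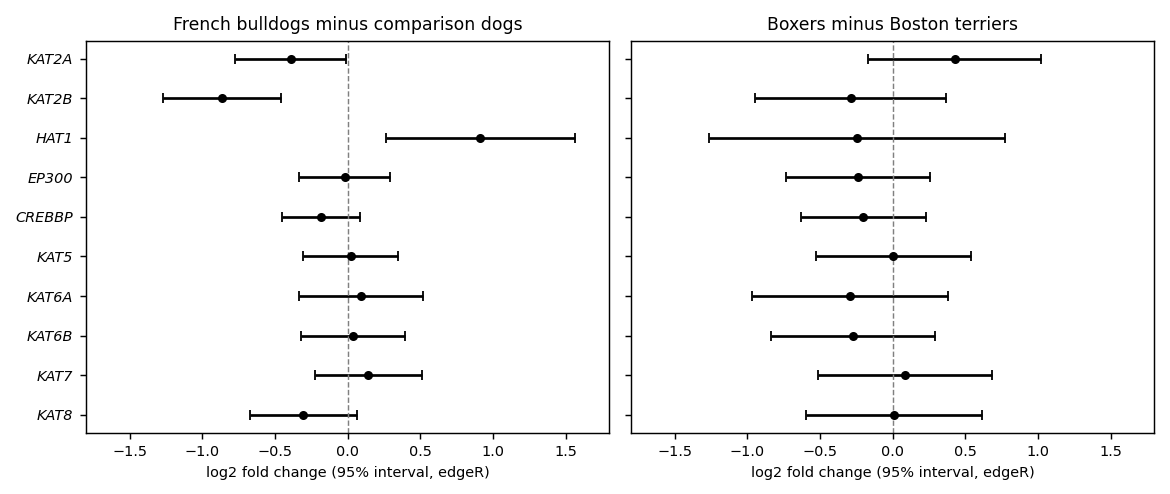
Points are log2 fold changes from edgeR and bars are 95% intervals, for French bulldogs minus comparison dogs (left, 11 against 7 libraries) and boxers minus Boston terriers (right, 4 against 3), with 1 gene per line and a dashed line at 0. On the left KAT2B, whose value is a description, lies at -0.86 and HAT1 at 0.91; on the right every interval spans 0.

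Whether KAT2B varied together with the other genes could be tested within French bulldogs, since all of these libraries are of 1 breed. KAT2B and KAT6A rose and fell together across the 11 French bulldogs, with Pearson's r = 0.81 (permutation p = 0.00318, adjusted over 9 relations 0.0286) and Spearman's rho = 0.88 (permutation p = 0.000540, adjusted 0.00486). French bulldogs 7, 9 and 11 had the lowest KAT2B levels, with KAT6A at 151, 148 and 170 CPM. French bulldogs 4 and 5 had the highest KAT2B levels, with KAT6A at 306 and 305 CPM. None of the other 8 genes passed the test with KAT2B. Their rho ran from -0.59 for KAT8 (adjusted permutation p = 0.272) to 0.32 for KAT2A (adjusted permutation p = 0.601).

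The relation between KAT2B and KAT6A was looked at again with other choices of libraries. Without French bulldog 6, r was 0.87 (adjusted permutation p = 0.0116) and rho 0.92 (adjusted permutation p = 0.00378, n = 10). With French bulldogs 2 and 8 averaged, r was 0.83 (adjusted permutation p = 0.0375) and rho 0.88 (adjusted permutation p = 0.0139, n = 10). Without the 2 libraries farthest from the KAT2B median, rho was 0.87 (exact test, adjusted p = 0.0406, n = 9) and r was 0.77 (exact test, adjusted p = 0.146, n = 9), so r no longer passed. With the size factors of DESeq2 in place of TMM, rho was 0.84 (adjusted permutation p = 0.0193) and r 0.78 (adjusted permutation p = 0.0553).

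In the 7 comparison dogs KAT2B and KAT6A had r = 0.28 (exact permutation p = 0.538, adjusted p = 0.880) and rho = 0.11 (exact permutation p = 0.840, adjusted p = 0.945). KAT6A spanned a narrow range in these dogs, and the difference in correlation between the groups was not tested. No other gene passed the test with KAT2B there. The highest r was that of EP300, 0.71 (exact permutation p = 0.0786, adjusted p = 0.467).

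**Figure D4:**
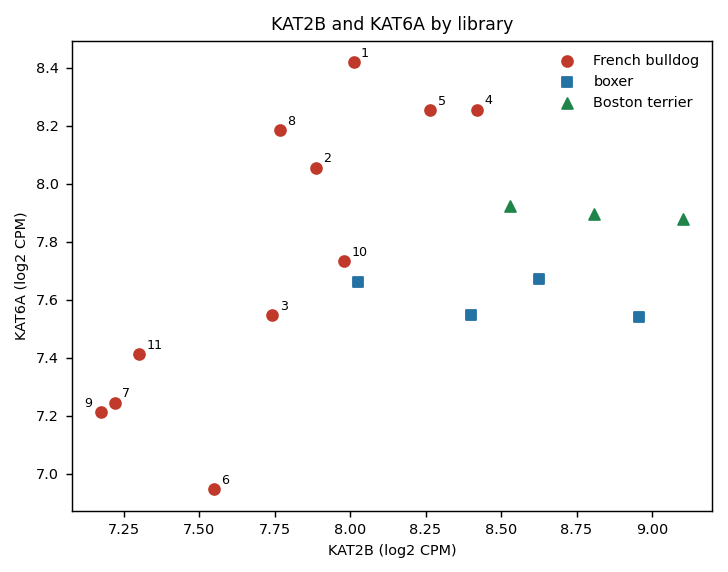
Each point is a library, with KAT2B on the horizontal and KAT6A on the vertical axis, both in log2 CPM; colours and shapes give the breed and numbers name the French bulldogs. The French bulldogs run from low in both genes (7, 9 and 11) to high in both (4 and 5; r = 0.81, rho = 0.88), and the comparison dogs lie to the right at intermediate KAT6A levels.

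Boxers and Boston terriers were compared with each other in a fit over all 3 breeds. This contrast played no part in the choice of KAT2B, but most boxers and most Boston terriers fell in different runs of library numbers. Breed and run cannot be fully told apart here. No gene of the 10 had an unadjusted p under 0.05, against 1.91% of all genes tested, and no gene of the 16495 (0%) passed at an adjusted p under 0.05 by edgeR, which gave 315 genes at an unadjusted p under 0.05. KAT2B was 373 CPM ± 99.6 (SD, n = 4) in boxers and 456 CPM ± 90.6 (SD, n = 3) in Boston terriers, with a log2 difference, boxer minus Boston terrier, of -0.29 (SE 0.31, 95% interval -0.95 to 0.37). It was -0.46 without boxer 1, -0.19 without boxer 4 and -0.13 without Boston terrier 7. The KAT2A estimate had the opposite sign, 0.43 (SE 0.28, 95% interval -0.17 to 1.02), and was 0.13 without boxer 1 and 0.64 without boxer 3. These intervals are wide, and 4 against 3 libraries cannot give an exact p below 0.0571.

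KAT6A and KAT6B were the only genes of the 10 in which these breeds did not overlap. All 4 boxers were below all 3 Boston terriers in KAT6A, by 195 CPM ± 9.67 (SD, n = 4) against 239 CPM ± 3.63 (SD, n = 3). The same held for KAT6B, by 94.5 CPM ± 1.91 (SD, n = 4) against 114 CPM ± 11.6 (SD, n = 3). Among all genes tested, 3.61% had every boxer below every Boston terrier. The log2 differences were -0.29 (SE 0.32) for KAT6A and -0.27 (SE 0.27) for KAT6B, and neither passed edgeR's test (adjusted p = 1.00 for both). The other 9 genes together had 840.0 CPM in boxers and 960 CPM in Boston terriers, without overlap (two-sided p = 0.0571 by exact permutation, or 0.286 adjusted over 5 measures).

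The wider machinery of histone acetylation was followed through 119 further genes in 8 lists, drawn up by function. Of these, 106 were listed once in the count table and 105 passed the filter. Against the comparison group, 8 were higher and 2 lower in French bulldogs at an unadjusted p under 0.05, which is 9.52% of the 105, against 10.6% of all genes tested. None passed at an adjusted p under 0.05 by edgeR, with 0.433 the lowest, and their median log2 fold change was 0.04, as over all genes tested. Leaving out French bulldog 6, 10 were higher and 1 lower at an unadjusted p under 0.05, 10.5% of the 105 against 10.8% of all genes tested. Between boxers and Boston terriers none of the 105 had an unadjusted p under 0.05.

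The complexes that hold KAT2A and KAT2B were represented by 23 SAGA and ATAC subunits, with a median log2 fold change of 0.02 (0.06 without French bulldog 6). At an unadjusted p under 0.05, 1 was higher and 1 lower. SUPT3H, a core SAGA subunit, had a log2 fold change of 0.59 (SE 0.27, edgeR adjusted p = 0.462). TADA3, which joins the acetyltransferase to both complexes, had a log2 fold change of -0.30 (SE 0.13, edgeR adjusted p = 0.452), which was no longer at an unadjusted p under 0.05 without French bulldog 6, with 31.9 CPM ± 4.61 (SD, n = 11) against 39.2 CPM ± 7.61 (SD, n = 7).

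For the TIP60 complex of KAT5, 13 subunits had a median log2 fold change of 0.21, with 1 higher at an unadjusted p under 0.05. This was MORF4L2, a subunit of that complex, at 0.36 (SE 0.12, edgeR adjusted p = 0.433), with 7 of 11 French bulldogs above every comparison dog. EP400, its chromatin remodeling ATPase, had the smallest p of the lower genes, at -0.14 (SE 0.16, edgeR adjusted p = 0.782). The 16 partners of KAT6A, KAT6B, KAT7 and KAT8 had a median of -0.02 (-0.01 without French bulldog 6). PHF20, a methyl-lysine reader of the NSL complex that carries KAT8, was at 67.8 CPM ± 17.97 (SD, n = 11) against 47.5 CPM ± 4.88 (SD, n = 7), and 9 of 11 French bulldogs were above every comparison dog. Its log2 fold change was 0.51 (SE 0.17, edgeR adjusted p = 0.433). JADE2, a scaffold of the KAT7 complex, was at -0.30 (SE 0.23, edgeR adjusted p = 0.654).

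The 13 other acetyltransferases, coactivators and histone chaperones had a median log2 fold change of 0.26, with 3 higher (4 without French bulldog 6) at an unadjusted p under 0.05, against 7.02% of all genes tested. The one with the smallest p was ASF1A, a chaperone of histones H3 and H4, at 0.43 (SE 0.16, edgeR adjusted p = 0.433). NCOA2, a nuclear receptor coactivator, had the smallest p of the lower genes, at -0.13 (SE 0.15, edgeR adjusted p = 0.780). The 7 genes of acetyl-CoA supply had a median of 0.22 (0.01 without French bulldog 6) and none at an unadjusted p under 0.05. DLAT, a subunit of pyruvate dehydrogenase, was at 0.26 (SE 0.17, edgeR adjusted p = 0.585). CRAT, carnitine acetyltransferase, was at -0.38 (SE 0.19, edgeR adjusted p = 0.484), and 6 of 11 French bulldogs were below every comparison dog.

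The enzymes that remove acetyl groups had negative medians, -0.26 over 11 zinc-dependent histone deacetylases and -0.34 over 6 sirtuins (-0.16 and -0.24 without French bulldog 6), with 1 member of each higher and 1 sirtuin lower at an unadjusted p under 0.05. Of all genes tested, 7.02% were higher and 3.55% lower at that p. HDAC2, a deacetylase of the NuRD and Sin3 corepressor complexes, went against its list. It was at 97.5 CPM ± 43.5 (SD, n = 11) in French bulldogs and 56.6 CPM ± 15.4 (SD, n = 7) in the comparison group, with 6 of 11 French bulldogs above every comparison dog. Its log2 fold change was 0.78 (SE 0.26, edgeR adjusted p = 0.433). HDAC10 was at -0.37 (SE 0.22, edgeR adjusted p = 0.550). SIRT1, a nuclear NAD-dependent deacetylase, was at 0.47 (SE 0.21, edgeR adjusted p = 0.446), and SIRT3, its mitochondrial relative, at -0.42 (SE 0.17, edgeR adjusted p = 0.433).

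The 16 readers of acetyl-lysine had a median log2 fold change of 0.06 (0.12 without French bulldog 6), and none had an unadjusted p under 0.05 (1 without French bulldog 6). BRD2, a BET bromodomain protein, was at 0.36 (SE 0.18, edgeR adjusted p = 0.482), and MLLT1, a YEATS domain reader of the transcription elongation machinery, was at -0.36 (SE 0.19, edgeR adjusted p = 0.508). The 16 partner genes named here were those with the smallest unadjusted p in each direction in their list.

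**Figure D5:**
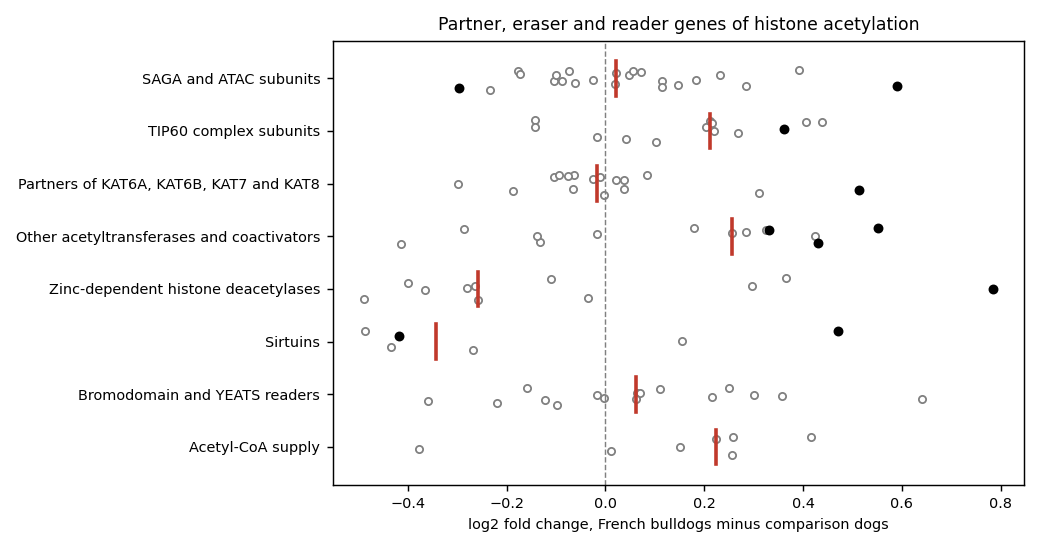
Points are genes of 8 lists placed by their log2 fold change, French bulldogs minus comparison dogs; black points had an unadjusted p under 0.05 by edgeR, open points did not, and red bars are list medians. The 10 black points are 8 higher and 2 lower, and none passed at an adjusted p under 0.05.

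Markers of the cell types that the tissue could hold were measured beside these results. The summed oligodendrocyte lineage markers had a median of 2983 CPM in French bulldogs (range 43.9 to 7139, and 1221 to 7139 without French bulldog 6) and 2894 CPM in the comparison group (range 2033 to 3986). With French bulldog 6 included, at 43.9 CPM, the mean log2 summed level was nevertheless lower in French bulldogs, by a difference of -0.49. Its size without this library is not given. Without it the French bulldog median was 3116 CPM, and the summed level had a permutation p of 0.868 between the groups (adjusted over 8 lists 0.868). The single markers had a median log2 fold change of -0.24 (-0.08 without French bulldog 6), with 6 of 8 lower and 0 at an unadjusted p under 0.05 (1 lower without French bulldog 6). No marker list passed the test of its summed level between the groups (exact permutation test over 8 lists, lowest adjusted p = 0.751). Single macrophage and microglia markers had higher estimates in French bulldogs, 8 of 11 at an unadjusted p under 0.05, against 7.02% of all genes tested, and 0 at an adjusted p under 0.05 by edgeR. None of the 11 (0) had an unadjusted p under 0.05 by edgeR without French bulldog 6. Their summed level had a median of 207 CPM in French bulldogs, with a range of 68.5 to 8997 (68.5 to 451 without French bulldog 6), and of 183 CPM in the comparison group, with a range of 130 to 227. Within French bulldogs KAT2B had a rho of 0.61 with the oligodendrocyte lineage (permutation p = 0.0515, adjusted over 80 relations 0.174), of 0.52 with the cell cycle (permutation p = 0.108, adjusted 0.299) and of -0.37 with macrophages and microglia (permutation p = 0.260, adjusted 0.495). When French bulldog 6 was left out these were 0.55 (permutation p = 0.105, adjusted 0.247), 0.67 (permutation p = 0.0392, adjusted 0.196) and -0.31 (permutation p = 0.385, adjusted 0.572). The part of these cells in the KAT2B difference was not tested.

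The genes whose pattern across libraries was most like that of KAT2B were found by Spearman's rho of log2 CPM, centred within French bulldogs and within the comparison group, over 18 libraries and 11583 genes with a symbol. Among the 10 with the highest rho were SMARCC1 (rho of 0.85), RYK (0.84), NUDT6 (0.83), TRNT1 (0.82), CCDC174 (0.81), BLM, PAPOLG and CDC25A (0.80) and CCDC66 (0.79). SMARCC1 encodes a core subunit of the SWI/SNF chromatin remodeling complexes, BLM a DNA helicase and CDC25A a phosphatase of the cell cycle. Without French bulldog 6 these 10 genes had rho from 0.76 to 0.88, and 5 of them were still among the top 10. Without centring within the groups their rho ran from 0.25 to 0.67, with CDC25A the lowest, and 0 of the 10 were among the top 10, so which genes are named depends on the centring. KAT6A, at 0.70, was the highest of the other 9 histone acetyltransferases and stood above 99.5% of the genes compared, of which the median rho was 0.01. The libraries share depth and scaling, so these values are descriptions of likeness, without a test.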

How the data were processed

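RNASeq was performed on formalin-fixed, paraffin-embedded HGO tissue, 18 libraries in all. The authors trimmed paired-end reads with Trimmomatic (version 0.33), mapped them to the canFam6 dog genome with HISAT2 (version 2.1.0), counted them per gene with featureCounts, and deposited raw counts without normalization. Strand and multi-mapping settings are not given in the sources used here. Groups were taken from the breed labels.

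From these counts, edgeR 4.0.16 (R 4.3.3) was run with TMM normalization, filterByExpr by group and the robust quasi-likelihood F test. P-values are two-sided, adjusted by Benjamini-Hochberg over all 16495 genes tested, with a threshold of 0.05. Each standard error was derived from the log2 fold change and the root of its F statistic. KAT2B was part of this fit and of the adjustment, but its p-value between French bulldogs and the comparison group is not reported. Boxers and Boston terriers were compared in a fit of 3 breeds. Correlations used log2 CPM with a prior count of 2 and 100000 permutations, or all pairings for under 10 libraries. Intervals and the limit of 3 counts cover counting error or the spread between libraries only, since no molecular identifiers are described.

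The genes, lists and tests were chosen with earlier results of these data known. Named genes were all 10 histone acetyltransferases, in each partner list the gene with the smallest p in either direction, and the 10 genes most like KAT2B, of which 1 item is not reported here. Alternatives were DESeq2 1.42.0, limma-voom (limma 3.58.1), other scalings and filters, libraries left out, single breeds or runs of library numbers, and a block for the dog number. TAF9 was listed more than once and left out. Overlapping genes were looked up in RefSeq on UU_Cfam_GSD_1.0, a different assembly, so no position is given. The code was tested on simulated data. Tables and figures used Python 3.11.15, pandas 2.3.3, scipy 1.17.1 and matplotlib 3.10.9.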

Additional observations from a re-analysis of the deposited data

Results flagged for a closer look

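Of 20 gene and group combinations tested for a single library far from the rest, 1 was marked, KAT7 in boxer 1. Its level there was 34.1 CPM, against 25.6 to 27.1 CPM in the other 3 boxers, and the gap took 0.830 of the range of the 4 libraries. Chance marks about 1 in 20 such groups. Boxer 1 also had the highest KAT2A level of the 18 libraries, 78.9 CPM. Without boxer 1 the KAT7 difference between boxers and Boston terriers turned from 0.08 to -0.01 on the log2 scale, with no call in either case.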

How the results depend on the processing

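Of 480 alternative log2 fold changes of the 10 genes, 439 kept their direction, 41 turned, and none of those with a test changed side of the threshold (KAT2B has none between French bulldogs and the comparison group). KAT2B, KAT2A, HAT1, CREBBP, KAT7 and KAT8 kept their direction between French bulldogs and the comparison group under all 33 alternatives each. EP300 turned to 0.003 without a filter, 0.0861 against boxers and 0.0464 against the libraries numbered 18 to 21 (-0.0726 to 0.0276 with 1 library left out). KAT5 turned to -0.0039 with a minimum of 10 counts, -0.0094 with French bulldogs 2 and 8 summed and -0.0608 without French bulldogs 6 and 8 (-0.025 to 0.1017 with 1 left out). KAT6A was -0.0688 against Boston terriers and 0.0159 to 0.1782 with 1 library left out. KAT6B was -0.0056 with limma-voom, -0.044 with 2 and 8 summed and -0.109 against Boston terriers (-0.0563 to 0.1149 with 1 left out). For boxers minus Boston terriers, HAT1 turned to 0.0183 with limma-voom, KAT5 to -0.0049 with DESeq2, -0.0032 with its size factors, -0.0276 without a filter and -0.0341 with limma-voom, and KAT8 to -0.0269 without a filter and -0.0031 with limma-voom. With 1 library left out the ranges were -0.64 to 0.54 for HAT1, -0.16 to 0.11 for KAT5, -0.10 to 0.33 for KAT7 and -0.0779 to 0.0821 for KAT8.

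The rho of KAT2B across French bulldogs turned for KAT2A (-0.117) and CREBBP (-0.267) without the 2 libraries farthest from the KAT2B median, and for CREBBP (-0.00909) and KAT6B (-0.0818) with DESeq2's size factors. That setting was not run in the comparison dogs, where 5 libraries would be left. Without centring, the 10 genes most like KAT2B had a median rho of 0.59, and 0 of them were in the top 10.

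The count of genes called between French bulldogs and the comparison group, 1 with edgeR, was 58 with DESeq2, 76 with DESeq2 without French bulldog 6, 2 with either upper quartile scaling or limma-voom, and 0 with a minimum of 10 counts, with 2 and 8 summed, against boxers alone, against either run of library numbers alone and without French bulldogs 6 and 8, and ran from 0 to 7 with 1 library left out. The cause was not tested. Same-numbered dogs 1 to 7 had correlations of -0.50 to 0.21 between their deviations from the group means. These were not tested or set against differently numbered dogs, and the main fit did not treat the numbers as pairs. A replicate block on these numbers gave 0 genes (967 at an unadjusted p under 0.05) and KAT6B at -0.0493, against 5 genes and -0.0041 in the same dogs without the block. The DESeq2 run and the counts of list genes without French bulldog 6, and the fit without 6 and 8, were added after seeing the data.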

Other observations

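Each of the 10 genes was also set against the summed level of 8 marker lists, a set of 80 relations added after seeing the data. Across the 11 French bulldogs, 22 of the 80 had an unadjusted permutation p under 0.05 for Spearman's rho, and 1 passed after adjustment: KAT8 with the oligodendrocyte lineage, rho = -0.90 (permutation p = 0.000250, adjusted 0.0200) and r = -0.55 (permutation p = 0.0897, adjusted 0.299). Without French bulldog 6, KAT8 passed with 3 lists: the oligodendrocyte lineage (rho = -0.95, adjusted permutation p = 0.0120, and r = -0.92, adjusted p = 0.00160), astrocytes (rho = 0.94, adjusted permutation p = 0.0120, and r = 0.96, adjusted p = 0.00160) and myelin (rho = 0.90, adjusted permutation p = 0.0205, and r = 0.84, adjusted p = 0.0584). With French bulldogs 2 and 8 averaged, 0 of the 80 passed, and KAT8 with the oligodendrocyte lineage had rho = -0.88 (adjusted permutation p = 0.118, n = 10). Without the 2 libraries farthest from its median, it had rho = -0.83 (exact test, adjusted p = 0.165, n = 9). In the comparison dogs 0 of the 80 passed, and the same relation had rho = 0.21 (exact permutation p = 0.662, adjusted 0.882). French bulldogs 2 and 8 had the lowest KAT8 levels, and they share 1 case number.

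The other relations with an unadjusted permutation p under 0.01 for rho in either group are given here as values, and none of them passed after adjustment over the 80. This limit was chosen after the values were seen. HAT1 and the summed cell cycle markers had positive coefficients in both groups, with rho = 0.76 in the 11 French bulldogs (permutation p = 0.00846, adjusted 0.113) and r = 0.67 (permutation p = 0.0232, adjusted 0.181) and rho = 0.93 in the 7 comparison dogs (exact permutation p = 0.00675, adjusted 0.180) and r = 0.85 (exact permutation p = 0.0153, adjusted 0.397). EP300 with astrocytes had rho = -0.79 in French bulldogs (permutation p = 0.00547, adjusted 0.113) and r = -0.51 (permutation p = 0.109, adjusted 0.322), and rho = -0.43 in the comparison dogs (exact permutation p = 0.354, adjusted 0.790). Without French bulldog 6 it had rho = -0.79 (permutation p = 0.00921, adjusted 0.0921, n = 10) and r = -0.84 (permutation p = 0.00354, adjusted 0.0629, n = 10). KAT8 with endothelial markers had rho = 0.77 in French bulldogs (permutation p = 0.00779, adjusted 0.113) and r = 0.66 (permutation p = 0.0248, adjusted 0.181), and rho = -0.04 in the comparison dogs (exact permutation p = 0.963, adjusted 1). HAT1 with myelin had rho = -0.77 in French bulldogs (permutation p = 0.00701, adjusted 0.113) and rho = 0.79 in the comparison dogs (exact permutation p = 0.0480, adjusted 0.480). HAT1 with endothelial markers had rho = -0.77 in French bulldogs (permutation p = 0.00727, adjusted 0.113) and rho = 0.46 in the comparison dogs (exact permutation p = 0.302, adjusted 0.790). With French bulldogs 2 and 8 averaged (n = 10), the permutation p for rho of HAT1 was 0.0302 with the cell cycle, 0.0204 with myelin and 0.0264 with endothelial markers. It was 0.0153 for EP300 with astrocytes and 0.0311 for KAT8 with endothelial markers. Each had an adjusted p of 0.248, and none of them met the limit of 0.01 in that setting. KAT6B with the oligodendrocyte lineage had rho = 0.68 in French bulldogs (permutation p = 0.0255, adjusted 0.136) and rho = 0.93 in the comparison dogs (exact permutation p = 0.00675, adjusted 0.180). Its r was 0.74 in French bulldogs (permutation p = 0.00945, adjusted 0.165) and 0.90 in the comparison dogs (exact permutation p = 0.00119, adjusted 0.0556). KAT6A and the oligodendrocyte lineage markers had rho = 0.69 in French bulldogs (permutation p = 0.0219, adjusted 0.136) and r = 0.70 (permutation p = 0.00252, adjusted 0.101) and rho = 0.93 in the comparison dogs (exact permutation p = 0.00675, adjusted 0.180) with r = 0.97 (exact permutation p = 0.00139, adjusted 0.0556). The comparison dogs pool boxers and Boston terriers, which did not overlap in KAT6A or KAT6B. A step between the breeds and a shared rise within them cannot be told apart there. The KAT6A relation with the oligodendrocyte lineage had rho = 0.59 in French bulldogs without number 6 (permutation p = 0.0814, adjusted 0.210, n = 10). With the cell cycle markers KAT6A had rho = 0.79 in those libraries (permutation p = 0.00895, adjusted 0.0921) but 0.41 with number 6 kept (permutation p = 0.216, adjusted 0.484). In the comparison dogs that rho was 0.39 (exact permutation p = 0.396, adjusted 0.790).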
